A study of Mus musculus with 2 samples.

Results

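GATA4 occupancy in whole liver of adult mice was examined at the genes of 2 related groups of cytoskeletal adaptors, the PDZ-LIM proteins (Pdlim1, Pdlim2, Pdlim3, Pdlim4, Pdlim5 and Pdlim7) and the sorbin proteins (Sorbs2 and Sorbs3). A GATA4 occupied site (OS) was assigned to one of these 8 genes when its midpoint lay in the gene body of the GENCODE M1 annotation or within 50 kb of it. The list of OS found by both peak callers, here the common list, held 4409 OS in all, and 10 of them met this rule. The mice were C57BL/6 x Sv129 and 2 to 3 months old by the labels, and chromatin from their livers was precipitated with the goat GATA4 antibody C-20. The methods of the study give a somewhat older age range for the mice. Input DNA of liver, taken without antibody, was the background of the peak calls. The study describes 2 biological replicates, each made of the livers of 2 mice, but the labels list 1 ChIP and 1 input sample, and each deposited list covers both replicates together. No read count and no value per replicate could therefore be given, and the OS of 1 sample are not replicates of each other. The 8 genes were chosen by the OS in and near them, so the number of OS per gene is a description and was not tested. The lists hold no expression values, so the tissue was not checked against marker genes.

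PDZ-LIM proteins join a PDZ domain, which binds alpha-actinin on actin filaments, to LIM domains, which bind kinases and other signalling proteins. Sorbin proteins carry a sorbin homology domain and SH3 domains, and connect actin stress fibres with vinculin, Abl kinases and Cbl at cell adhesions. In liver, actin filaments line the bile canaliculi of hepatocytes and form the stress fibres of activated stellate cells, and whole liver holds both cell types together with endothelial cells. Which of these cells carried an OS cannot be told apart in whole tissue. The study excised Gata4 in hepatocytes and examined sites at factor X, FOG1, HNF4α and HNF6, where GATA4 was almost entirely lost. It assigned the occupancy of those sites to hepatocytes. No site at the PDZ-LIM or sorbin genes was among them.

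Of the 8 genes, 7 had at least 1 common OS in the body or within 50 kb, and 4 had at least 1 in the body itself. Among all 22380 protein-coding genes of the annotation, 27.7% had a common OS within this reach and 7.67% had one in the body. Pdlim1, Pdlim2, Pdlim5, Pdlim7 and Sorbs3 had 2 each, Pdlim3 and Sorbs2 had 1 each, and Pdlim4 had 0. Of all protein-coding genes, 9.15% had 2 or more. The rule rests on these counts, so nothing is read from their difference. The 8 genes had a median length of 30620 bp, against 15420 bp for all protein-coding genes, and a longer gene has a wider window.

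The sequences of 7 OS are shown here because they lie in or beside a PDZ-LIM or sorbin gene and not at the start site of an unrelated gene. They are given on the plus strand of mm9, in lower case, with each WGATAR in capitals. WGATAR is the binding sequence of GATA factors and has A or T as W and A or G as R, and a match on the minus strand appears here as its reverse complement. No exon of the annotation overlapped any of these 7 stretches.
Pdlim1 upstream OS, chr19:40372017-40372215, the stretch with all of its WGATAR: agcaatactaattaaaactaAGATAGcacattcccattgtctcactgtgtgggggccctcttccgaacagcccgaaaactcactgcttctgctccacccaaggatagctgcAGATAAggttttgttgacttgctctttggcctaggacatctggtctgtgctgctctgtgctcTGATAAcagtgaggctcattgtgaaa
Pdlim1 intron 4 OS, chr19:40314285-40314346, the stretch with its WGATAR pair: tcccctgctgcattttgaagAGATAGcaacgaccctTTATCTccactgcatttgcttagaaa
Pdlim5 intron 2 OS near the start, chr3:142048724-142048823, 100 bases around its WGATAR: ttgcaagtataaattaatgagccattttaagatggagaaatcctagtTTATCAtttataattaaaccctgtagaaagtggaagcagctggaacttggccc
Pdlim5 intron 2 OS farther in, chr3:142016293-142016389, the whole OS, without a WGATAR: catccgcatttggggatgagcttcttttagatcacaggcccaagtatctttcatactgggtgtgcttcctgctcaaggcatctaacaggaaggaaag
Pdlim7 downstream OS, chr13:55596791-55596900, the whole OS: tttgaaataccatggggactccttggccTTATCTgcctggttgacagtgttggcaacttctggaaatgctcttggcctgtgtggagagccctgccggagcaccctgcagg
Sorbs2 intron 1 OS, chr8:46696805-46696942, the whole OS: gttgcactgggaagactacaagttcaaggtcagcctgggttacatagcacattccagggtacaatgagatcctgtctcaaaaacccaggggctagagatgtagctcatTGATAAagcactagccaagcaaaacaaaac
Sorbs3 intron 1 OS, chr14:70606155-70606288, the whole OS and the bases up to the nearest WGATAR: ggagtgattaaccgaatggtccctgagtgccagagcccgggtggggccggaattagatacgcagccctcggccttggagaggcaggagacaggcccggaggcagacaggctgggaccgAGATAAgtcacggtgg

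Pdlim1, also called CLP36 or elfin, had an OS on each side of its start. The gene lies on the minus strand of chromosome 19 from 40296731 to 40346106. The upstream OS, at 40372000 to 40372324, was number 5 of the 4409 in the common list, and the MACS2 peak that it met was number 8 of 5867. Its midpoint was 26056 bp upstream of the Pdlim1 start, which was the nearest start of any annotated gene. It held 3 WGATAR, all on the plus strand, which began 91 and 62 bp apart. The outer 5' match was AGATAG. The next, AGATAA, and the last, of the form TGATAA, stood on either side of the midpoint, 31.5 and 30.5 bp from it. The OS in the body, at 40314143 to 40314462, lay in intron 4 and was 31804 bp downstream of the start. It was number 2805 in the common list and met MACS2 peak 2796. Its AGATAG and, on the opposite strand, its AGATAA began 16 bp apart close to the midpoint. In its supplement, the study lists an OS that overlaps this one for Pdlim1. There, Pdlim1 is among the genes with lower RNA in purified hepatocytes after Gata4 excision, at a relaxed threshold. Whether this OS had a part in that change was not tested. Pdlim1 is absent from the supplement's list of changed genes with an OS after excision of Gata4 and Gata6 together. It was also not among the genes that the study examined by RT-qPCR.

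Pdlim5, also called ENH, was the only one of the 8 genes with more than 1 common OS in its body. It spans 141903568 to 142058630 on the minus strand of chromosome 3, and no other protein-coding gene lay within 50 kb of it. Both OS lay in intron 2. The OS at 142048691 to 142049009, 5964 bp downstream of the nearest Pdlim5 start, was number 7 in the common list and met MACS2 peak 37. Its only match was of the form TGATAA on the minus strand and stood 76.5 bp from the midpoint, so that the central 100 bp held none. The OS at 142016293 to 142016389, 38473 bp downstream of the same start, was number 1711 and met MACS2 peak 3495. It was the narrowest of the 10 OS, with 97 bp, and its nearest WGATAR was a TGATAA 355.5 bp from the midpoint. Its GATA was an AGATAC on the minus strand, a WGATA without the final A or G.

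The list numbers of both leading OS, 5 and 7, placed 2 of the 10 OS among the first 10 of the whole list. What determined the order of the numbers is not given in the lists. All scores were set to 1000 by the authors and say nothing about strength. The 10 OS had numbers from 5 to 4129 with a median of 1769.5, against a median of 2205 in the whole list. By the MACS2 peaks that they met, their median number was 1966.5, against 2195 for all common OS. Apart from the leading pair and the OS near Pdlim7 described next, which had number 249, the numbers lay between 1443 and 4129. The members thus did not share one place in the list.

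**Figure D1:**
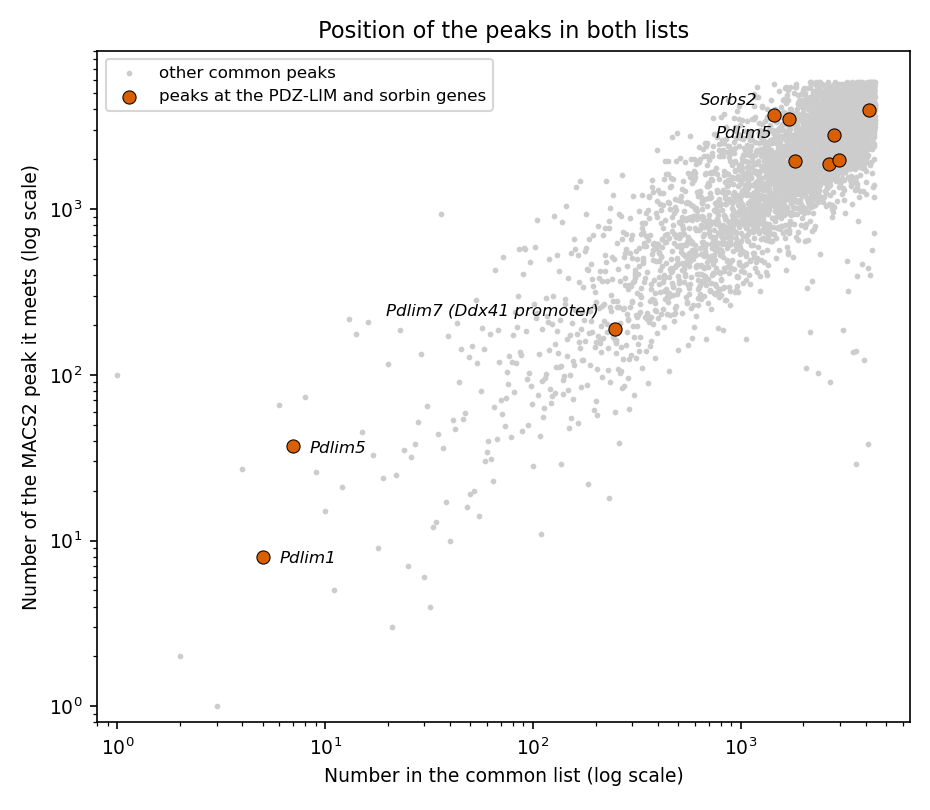
Number of each common OS in the common list (x axis, log scale) against the number of the MACS2 peak that it met (y axis, log scale), with the 10 OS at the PDZ-LIM and sorbin genes in orange and the other common OS in grey. The OS upstream of Pdlim1 (5 and 8) and the OS near the start of Pdlim5 (7 and 37) stand near the head of both lists, the OS at the Ddx41 promoter follows (249 and 189), and the other 7 have numbers of at least 1443 and 1874.

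Pdlim7, also called Enigma, lies on chromosome 13 from 55597156 to 55615037 on the minus strand and had a common OS on either side but none in its body. The OS at 55596791 to 55596900 had its midpoint 311 bp beyond the 3' end of Pdlim7, the smallest distance of any OS outside a member's body. It was number 1828, met MACS2 peak 1957 and held an AGATAA on the minus strand 23.5 bp from its midpoint. The nearest start was that of Dbn1, which encodes the actin-binding protein drebrin, 7316 bp away. The OS at 55637848 to 55638061 was 22917 bp upstream of Pdlim7. Its midpoint lay in exon 1 of Ddx41, an RNA helicase gene, 65 bp downstream of the Ddx41 start. It was number 249 in the common list and 189 in the MACS2 list.

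Sorbs2, also called ArgBP2, is the longest of the 8 genes, with 320112 bp on the plus strand of chromosome 8 from 46593148 to 46913259, and has 21 annotated start sites of coding transcripts. Its OS, at 46696805 to 46696942, lay in intron 1 of the longest coding transcript, 103725 bp from the 5' end of the gene. Start sites before the OS numbered 4, and 17 lay after it, the nearest of them 16226 bp downstream. The OS was number 1443, met MACS2 peak 3672 and held a TGATAA 42.5 bp from its midpoint. It was the only one of the 10 OS without a CpG. It was also the only one with a 24-base word that occurs elsewhere in the genome. Of its 115 words, 16 occurred more than once, and the commonest had 10 copies. Across all common OS, 6.55% had a word with 10 or more copies. The authors kept only uniquely placed reads, and what this did to the call here was not tested.

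Sorbs3, or vinexin, a vinculin-binding protein, and Pdlim2, or mystique, are neighbours on the minus strand of chromosome 14. Sorbs3 spans 70580275 to 70607444 and Pdlim2 spans 70564025 to 70577488, with 2786 bp and no coding gene between them. Both OS of this locus fell into both windows, so that the 12 pairs of a gene and an OS came from 10 OS. The OS at 70606155 to 70606269 lay in intron 1 of Sorbs3, 1232 bp downstream of the Sorbs3 start and 28724 bp upstream of Pdlim2. It was number 2979 and met MACS2 peak 1976, which with 1567 bp was the widest at any of the 10. The OS itself held no WGATAR, but an AGATAA began 4 bp after its last base, 63.5 bp from its midpoint. Its GATA was again an AGATAC. The OS at 70553596 to 70553698 was number 2655 and lay 29 bp upstream of the start of 2610301G19Rik, as the annotation names this gene. It was 10378 bp beyond the 3' end of Pdlim2, held no WGATAR and had a CGATAA, and its nearest WGATAR was 1077.5 bp away.

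Pdlim3, the actinin-associated LIM protein (ALP) of muscle Z lines, had a single OS. It lay at 47020023 to 47020342 on chromosome 8, 15282 bp beyond the 3' end of the gene (46970839 to 47004900, plus strand). Its midpoint was in intron 1 of Ccdc110, 209 bp from the start of a coding transcript of that gene, and it was number 4129 in the common list and met MACS2 peak 3947. Pdlim4, also called RIL, had no OS in any of the 3 lists within 50 kb. Its nearest common OS, number 3386, was 146066 bp from the gene (chromosome 11, 53868430 to 53882516, minus strand). The window of Pdlim4 nevertheless held 210 WGATAR, or 1.84 per kb.

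**Figure D2:**
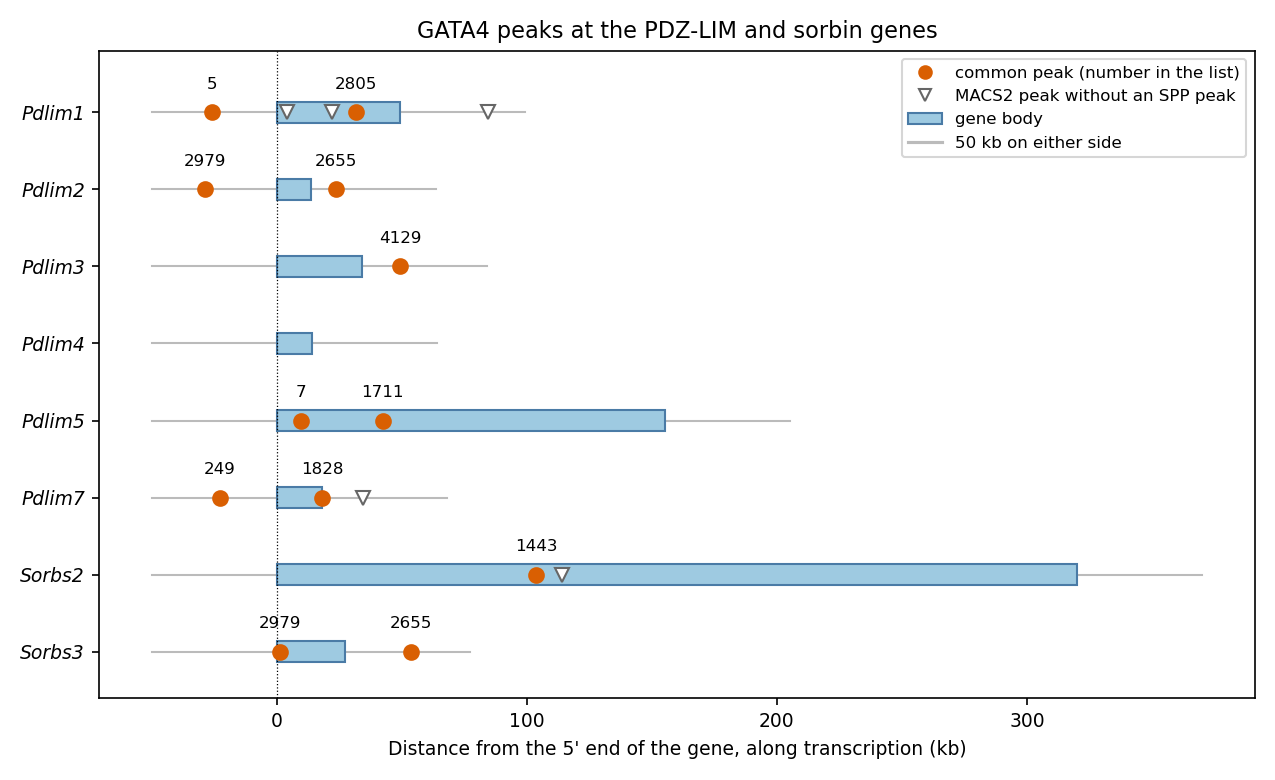
Common OS (orange circles, with their numbers in the common list) and MACS2 peaks without an SPP peak (open triangles) along each of the 8 genes, drawn to scale from the 5' end in the direction of transcription (x axis, kb). Blue boxes are gene bodies and grey lines reach 50 kb to either side. Pdlim1, Pdlim5, Sorbs2 and Sorbs3 have an OS in the body, the OS of Pdlim2, Pdlim3 and Pdlim7 lie outside it, and Pdlim4 has none.

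All OS outside a gene body were within 28724 bp of the gene, and the closest common OS beyond the 50 kb reach lay 57040 bp from Pdlim2. With the nearest start of a protein-coding gene as the rule, 6 of the 10 OS belonged to a member (both of Pdlim1 and Pdlim5, and those in Sorbs2 and Sorbs3). Of the other 4, 3 lay within 1 kb of the start of Ddx41, Ccdc110 or 2610301G19Rik, and the OS beyond the Pdlim7 end was nearest to Dbn1. None of the 10 OS lay within 1 kb of a member's own start. Of all common OS, 14.8% lay within 1 kb of a protein-coding start. The 3 promoter OS had 5 to 8.88 CpG per 100 bp, and the OS in Sorbs3 intron 1 had 5.22. The other 6 had 0 to 1.25, and the median of all common OS was 1.44. No OS lay between 1.25 and 5. Of the 10 OS, 2 were 320 bp wide, the width of 25.6% of all common OS.

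**Figure D3:**
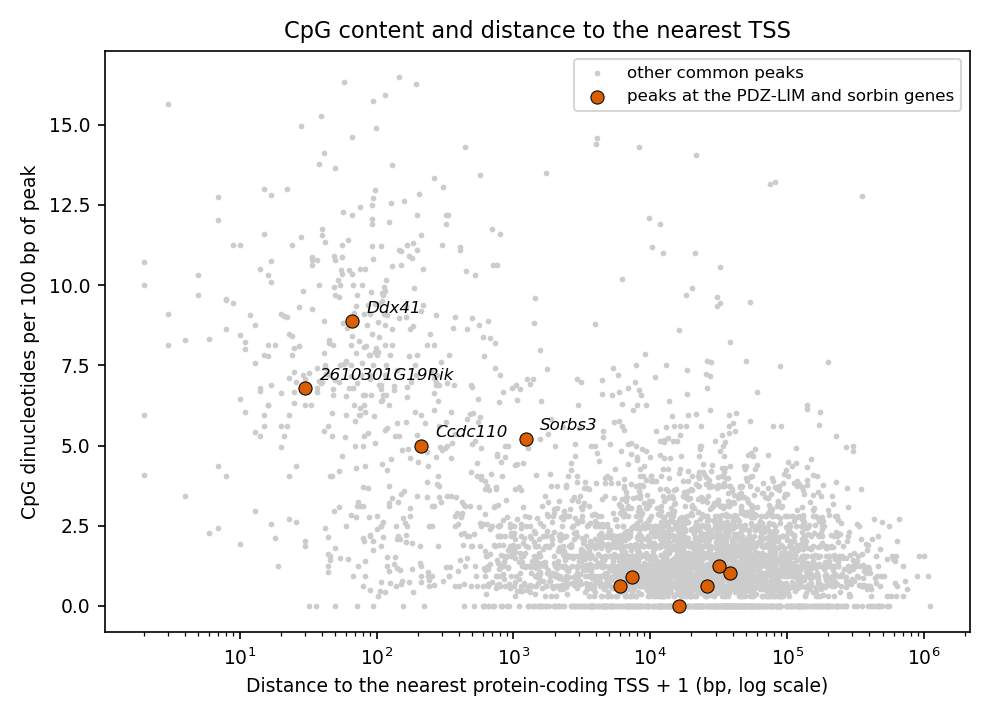
CpG dinucleotides per 100 bp of each common OS (y axis) against the distance of its midpoint from the nearest protein-coding start, plus 1 bp (x axis, log scale), with the 10 OS at the PDZ-LIM and sorbin genes in orange and named where they have more than 4 CpG per 100 bp. The OS at Ddx41, 2610301G19Rik, Ccdc110 and Sorbs3 have 5 to 8.88, and the other 6, over 5 kb from every start, have at most 1.25.

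The GATA motif WGATAR was found in 7 of 10 member OS (70%, Wilson 95% interval of 39.7 to 89.2), and the 82.9% of all common OS lay within this interval. Such an interval covers only the counting of 10 sites. The central 100 bp held it in 6 OS, against 74.3%. A pair or more of WGATAR was found in 2 OS, both at Pdlim1, and in 34.7% of all common OS. Among the 10 matches in the 7 OS, AGATAA occurred 4 times, while AGATAG and the form TGATAA occurred 3 times each. In the 3 OS without a match, 2 in introns and 1 at a promoter, a WGATA or GATAR was present. All 10 OS thus held one of these shorter sequences, as did 92.9% of all common OS and 439 of the 754 common OS without WGATAR. With its own motif search, the study reports higher shares of its occupied sites with WGATAR and with the shorter sequences. Why its shares are higher was not tested. Across the windows of all 8 genes, 3079 WGATAR stood in 1291.6 kb, 2.38 per kb against 2.64 on chromosomes 1 to 19 and X, and 10 of them (0.325%) lay in a common OS, against 0.0850% on those chromosomes. The genes were picked for their OS, so nothing is read from this last difference.

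**Figure D4:**
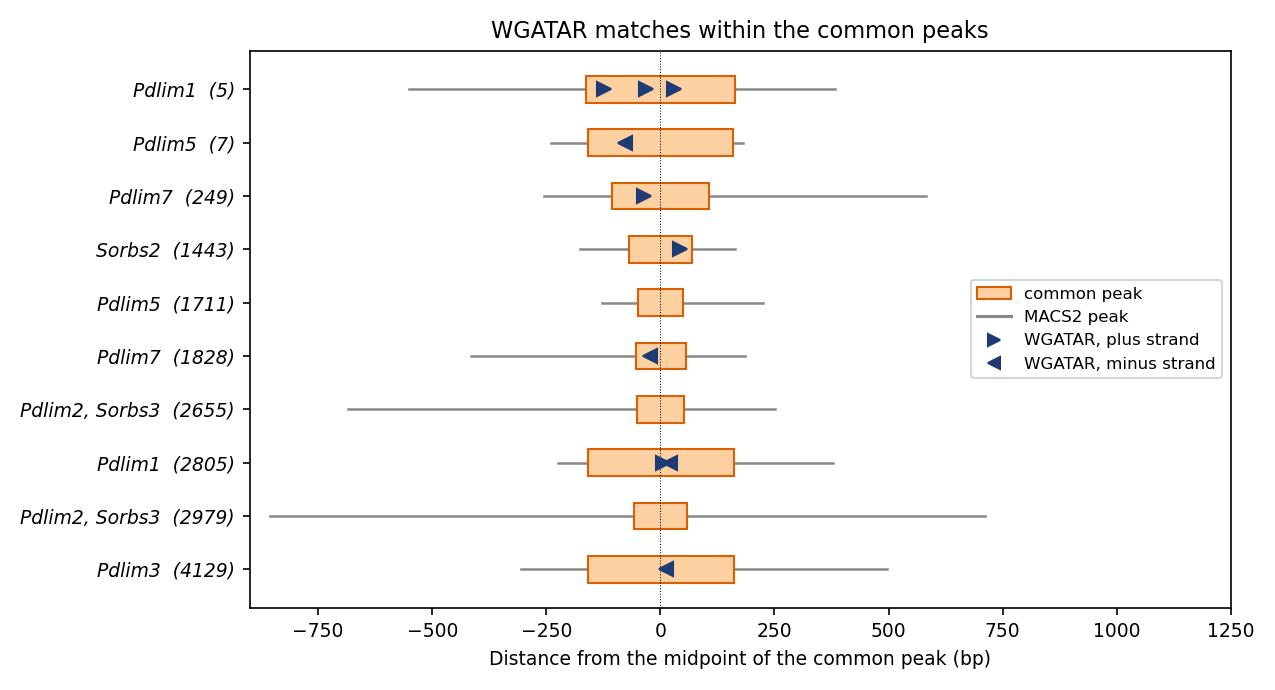
Positions of WGATAR (triangles, pointing right on the plus strand and left on the minus strand) within the 10 common OS (boxes) and the MACS2 peaks that they met (grey lines), in bp from the midpoint of each OS (x axis). Rows give the gene and, in brackets, the number in the common list. The OS upstream of Pdlim1 holds 3 matches and the OS in Pdlim1 intron 4 holds 2, while numbers 1711, 2655 and 2979 hold none.

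The common list is made of the SPP peaks that met a MACS2 peak, 91.6% of the SPP list, so the 10 OS met one by construction and nothing is read from that. The SPP list had no further peak at these genes. MACS2 had 15 peaks at the 8 genes. The 5 that met no SPP peak had numbers 3250 to 5727 of 5867. They lay in Pdlim1 introns 1 (number 5556) and 3 (number 4644), in Sorbs2 intron 1 (number 5661), at the start of Cyp2c70 (number 3250), a cytochrome P450 gene beside Pdlim1, and in Dbn1 intron 8 (number 5727). Pdlim1 therefore had 3 MACS2 peaks in its body but 1 common OS. A WGATAR was present in 3 of the 5, both in Pdlim1 and the one at Cyp2c70, against 85% of all MACS2 peaks without an SPP peak. Of the 15 MACS2 peaks, 11 held WGATAR, against 90.3% of the MACS2 list, and 10 met an SPP peak, against 74.5%, a share that the choice of genes by their common OS partly set. At least 1 MACS2 peak lay within reach of 7 of the 8 genes, against 33.9% of protein-coding genes. These were the same 7 genes that had a common OS, each of which meets a MACS2 peak by construction. Nothing is read from this difference either.

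Short sequences of other factors were matched on both strands of the 10 OS as a description. The E-box CANNTG, the site of basic helix-loop-helix factors, was present in 7, against 60.3% of all common OS. CCAAT, the CCAAT box, was present in 2, in the OS upstream of Pdlim1 and at the Ddx41 promoter, against 23.5%. None of the 13 E-box and 4 CCAAT matches overlapped a WGATAR. FOXA (TGTTTAC) was matched in 0 of the 10, against 6.26% of all common OS. The same count of 0 was found for AP-1 (TGANTCA), against 7.55%, for ETS (CCGGAAG), against 4.94%, and for HNF4 (CAAAGTCCA), against 1.16%. With 10 OS, counts of 0 beside such shares carry little information. RefSeq promoters, from 250 bases before to 50 after a start, were at hand for Pdlim1, Pdlim3, Pdlim4, Pdlim5, Pdlim7 and Sorbs2, and not for Pdlim2 and Sorbs3. Of their 9 promoters, 1 held WGATAR, at Pdlim5, against 29.8% of all promoters.

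Pdlim2 with Sorbs3 and Pdlim3 with Sorbs2 are neighbouring pairs on the same strand with no coding gene between, and they shared 2 and 0 common OS, respectively. Outside the rule, Ldb3, the PDZ-LIM gene for Cypher/ZASP of the Z line, had 1 common OS, number 2161, in intron 2 and 416 bp from a start, with an AGATAA.

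Partners of these proteins in actin filaments and adhesions were compared as a list of 36 genes. A common OS was found within reach of 18 of them, against 27.7% of protein-coding genes, and in the body of 11, against 7.67%. These genes are long, with a median of 31670 bp, and the difference was not tested. Dlc1, which encodes a GTPase-activating protein of focal adhesions, had the most common OS of the list, 9, of which 7 were in its body. Csrp1, for a LIM protein that binds actinin, Fhl3, for a LIM-only protein, and Myoz3, for a Z-line protein that binds actinin, had 2 each. The best placed OS of the list was number 94, at Lasp1, named here after its value was seen. Also named after their values were seen are the alpha-actinins, to which the PDZ domains bind. Actn1 and Actn4 had 1 OS each in the body, and Actn2 and Actn3 had 0. Of the 35 OS of the partner list, 34 held WGATAR, against 82.9% of all common OS, and this was not tested either.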

How the data were processed

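Reads had been placed on mm9 by the authors with Bowtie 0.12.7, and unique placements were kept. Peak calling used MACS2 2.0.10 and an altered form of SPP, whose version is not given in the sources used here, for both replicates and for their merged reads, with merged input as background and thresholds by IDR (irreproducible discovery rate), and bedtools 2.16.1 gave the common list with SPP coordinates (versions from the submitters' processing notes). For IDR the SPP peaks were ordered by signal and the MACS2 peaks by p-value, but the lists do not say whether their numbers follow that order. The deposited tracks hold position, number and a score, which the authors set to 1000 for every peak. Depth per peak is not known from them.

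Coordinates were turned from 0-based to 1-based and are those of mm9. The sequence (NCBI Build 37) and GENCODE M1 (37310 genes) are of that build, and every peak fell within its chromosomes. The study took its genes from RefGene instead. Introns were numbered in the coding transcript with the longest exon sequence. Starts are those of coding transcripts. Motifs were matched exactly on both strands, and lists were called overlapping from 1 bp. Promoters were RefSeq sequences (GRCm38.p6), read for letters only. Wilson 95% intervals cover counting error only, and no test was run, since the genes were chosen from these peaks and there is 1 ChIP sample.

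The 8 genes and the lists were chosen with earlier results of these data known. All members were named, with Ldb3, the genes with the start nearest to a member peak and the 5 partner genes with most common OS (ties by symbol). The alpha-actinins and Lasp1 were added. Some genes that this rule names are not reported here. Alternatives were the reach, the gene model, the assignment, the peak list, the motif and the sequence scanned. Python 3.11.15, numpy 2.4.6, pandas 2.3.3, scipy 1.17.1, pysam 0.24.0, samtools 1.23.1 and matplotlib 3.10.9 were used. Overlaps, nearest starts and motif matches were tested on simulated data, and 400 of 400 cases were correct for each.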

Additional observations from a re-analysis of the deposited data

How the results depend on the processing

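The number of common OS at the 8 genes, 10, depended on the reach and on the assignment. It was 5 in gene bodies only, 6 within 5 kb or 10 kb, and 13 within 100 kb. It was 6 when the nearest coding start had to belong to a member, and 4 with starts of all annotated genes, an alternative chosen after seeing the data, because Gm16351 and Gm16600 start nearer to the OS in Sorbs2 and Sorbs3. The upper part of the common list, its first 2204 OS by number, held 6. Leaving out the rest of the list could only lower the count, so nothing is read from this fall. The MACS2 list gave 15. The share with WGATAR went to 100% with WGATA or GATAR and with GATA alone, and lay between 60% and 80% under the other alternatives. Partner genes with an OS fell from 18 to 11 in gene bodies only. Of 30 alternatives, 21 stayed within 1.5 times a count or within the interval of a share or median. Of these 21, 3 concerned the share of SPP peaks that met a MACS2 peak, which the making of the common list largely set. The intervals were wide, 39.7 to 89.2% for the share with WGATAR and 7 to 2979 for the median list number. Staying within them therefore says little about stability. With 10 OS and lists that cover both replicates together, no OS could be checked against replicate error, and leaving out a replicate was not possible. No paired analysis was possible because the labels list 1 ChIP sample.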
